A study of Mus musculus with 283 samples.

Results

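The guanylate-binding proteins are a family of interferon-induced GTPases, and 10 of their genes were described here, Gbp2 to Gbp11. The members were taken by name, as the rows of the deposited tables that carry these symbols, and the family was chosen with earlier results of these data known. They were 10 of 45657 gene entries in the table of tumours and glands, and all 10 were also in the separate table of cultured lines. Every member passed the filter on low values in the tumour fit, the gland fit and the comparison of models.

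Guanylate-binding proteins are among the most abundant transcripts induced by interferon gamma, through IRF1 among other factors, and type I interferon also raises many of them. The proteins gather on membranes around bacteria and parasites, break open the compartments that hold them, and help inflammasomes to form. In tumours their transcripts are read mainly as a trace of interferon gamma from T cells and NK cells, which acts on tumour cells and on myeloid cells alike.

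The series asked which features of mouse models of triple-negative breast cancer go with sensitivity to antibodies against PD-1 and CTLA4. RNA of 264 tumours and normal glands and of 6 cultured lines was sequenced, and 13 exomes of the 283 samples were not analysed here. Per the labels' protocols, tumours grew orthotopically in syngeneic mice that were randomised at a tumour diameter of 5 mm, and treated mice received 125 ug of anti-CTLA4 and 10 mg/kg of anti-PD1 together by intraperitoneal injection. The labels give each tumour a model, a class (sensitive, resistant or unknown), a time (3 days, 7 days or end) and an arm, treated or untreated. The sensitive models were KPB25L, KPB25L-UV, KPB25L-Apobec, T11-UV and T11-Apobec, and the resistant ones T11, KPB-1A, p53-2153F, p53-2224L, p53-2225L, p53-2336R and p53-9263-3. Also classed resistant is p53-2224, with 1 untreated library at end stage. In the published study the UV and Apobec models are lines derived from T11 and KPB25L to carry more mutations, by ultraviolet exposure or by an Apobec3 transgene, so the 5 sensitive models come from 2 parents, 1 of them classed resistant, and are not independent lines. At 7 days 5 models were profiled, with 4 treated and 4 untreated tumours in T11, T11-UV and T11-Apobec, 4 and 3 in KPB25L and 6 and 4 in KPB25L-UV. The models of unknown class used here include KPB-Primary, C3-TAG, PyMT, ILC-Pik3Ca/Cdh1Null and KPB-1B. Of these KPB-Primary, C3-TAG and PyMT are models of engineered mice, so the account of orthotopic growth need not apply to them. Normal glands are labelled BALB/c or FVB, and the host strain of the tumours was not used in any test. The labels do not give the age or sex of the mice, and no label says more of the untreated arm than that it had no therapy.

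Levels are log2(signal + 1), where the signal is the authors' upper-quartile normalized value, and a difference of 1 on this scale is a doubling of signal + 1, which understates the change of members near 0. A member was called where limma's adjusted p (Benjamini-Hochberg over all genes tested) was under 0.05. The p-values measure the spread between these tumours, and the labels give no litter or cage.

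The 10 genes lie in 2 clusters in the mouse genome (GRCm38, GENCODE annotation). On the plus strand of chromosome 3 are Gbp5 (chr3:142493978-142522344), Gbp7 (chr3:142530342-142550149), Gbp3 (chr3:142560026-142573209) and Gbp2 (chr3:142620602-142638008). On the minus strand of chromosome 5 are Gbp8 (chr5:105014150-105139540), Gbp9 (chr5:105077630-105139539), Gbp4 (chr5:105115767-105139586), Gbp10 (chr5:105215699-105239533), Gbp6 (chr5:105270702-105293698) and Gbp11 (chr5:105323042-105346472). Gbp8, Gbp9 and Gbp4 overlap one another there, and Gbp11 is annotated as a polymorphic pseudogene in the reference strain. Chromosome 3 holds the members best known for function. Gbp2 coats parasite vacuoles, Gbp5 has been tied to inflammasome assembly, and Gbp7 to the delivery of oxidase subunits to vacuoles.

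Promoter sequence from RefSeq (GRCm38.p6), 250 bases before to 50 after the start, was found for 4 of the 10 members, those on chromosome 3. The sequences are shown because the levels of these members varied together over the groups, and because interferon motifs can be looked for near their starts. Capitals mark matches, on either strand, to the GAS motif TTCNNNGAA, known from interferon gamma responses, and to the ISRE core, GAAA repeated with any 2 bases in between, the form bound by IRF proteins. All ISRE core matches lie on the minus strand, so they read as the reverse complement, and in Gbp3 the pair of matches overlaps.
Gbp2 (chr3:142620413-142620712): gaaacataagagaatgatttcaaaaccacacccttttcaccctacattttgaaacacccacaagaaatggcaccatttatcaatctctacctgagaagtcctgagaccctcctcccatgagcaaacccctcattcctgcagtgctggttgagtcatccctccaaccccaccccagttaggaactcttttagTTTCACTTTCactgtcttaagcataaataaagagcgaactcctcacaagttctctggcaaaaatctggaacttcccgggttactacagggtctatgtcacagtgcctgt
Gbp3 (chr3:142559794-142560093): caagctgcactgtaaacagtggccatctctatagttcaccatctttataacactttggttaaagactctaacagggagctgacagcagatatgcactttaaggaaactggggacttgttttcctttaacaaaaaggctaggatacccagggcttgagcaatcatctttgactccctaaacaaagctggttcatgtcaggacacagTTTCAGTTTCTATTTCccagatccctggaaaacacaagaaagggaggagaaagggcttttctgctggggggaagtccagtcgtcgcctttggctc
Gbp5 (chr3:142496684-142496983): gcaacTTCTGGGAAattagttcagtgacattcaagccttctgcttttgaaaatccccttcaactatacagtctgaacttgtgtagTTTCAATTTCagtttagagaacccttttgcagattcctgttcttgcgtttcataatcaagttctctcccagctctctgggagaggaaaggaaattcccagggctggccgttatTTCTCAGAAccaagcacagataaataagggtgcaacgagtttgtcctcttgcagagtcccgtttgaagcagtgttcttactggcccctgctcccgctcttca
Gbp7 (chr3:142530086-142530385): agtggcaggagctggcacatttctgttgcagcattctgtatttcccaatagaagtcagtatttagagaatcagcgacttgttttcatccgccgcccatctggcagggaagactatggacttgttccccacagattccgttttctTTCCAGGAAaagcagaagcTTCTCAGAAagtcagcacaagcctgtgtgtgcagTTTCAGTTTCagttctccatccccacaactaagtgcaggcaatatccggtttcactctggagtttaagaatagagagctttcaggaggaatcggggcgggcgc
Each of the 4 windows held an ISRE core. In Gbp2 it was TTTCACTTTC, 59 to 50 bases before the start, in Gbp7 TTTCAGTTTC, 53 to 44 bases before, and in Gbp5 TTTCAATTTC, 165 to 156 bases before. Gbp3 had TTTCAGTTTC and TTTCTATTTC, 45 to 36 and 39 to 30 bases before the start, and a second RefSeq start of Gbp3 (chr3:142560106-142560405) held no match to either motif. GAS matches were found in Gbp5 (TTCTGGGAA, 245 to 237 bases before, and TTCTCAGAA, 52 to 44 bases before) and in Gbp7 (TTCCAGGAA, 106 to 98, and TTCTCAGAA, 87 to 79). Over all 32851 promoter windows of this length, 8.3% held a GAS match, 3.44% an ISRE core and 0.454% both. A match describes the letters only, and no binding was measured.

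Across the 264 libraries the estimated depth was 3.47 to 149.56 M reads, with a median of 51.4. The 50 transcripts with the largest gap from untreated KPB25L to T11 tumours at 3 days, used as T11 markers, averaged 6.97 to 9.32 on the log2 scale in 74 libraries of T11 and its derivatives. The same average was 1.82 to 4.35 in 31 libraries of KPB25L and KPB25L-Apobec. Among KPB25L-UV libraries 21 lay at 1.68 to 3.44 and 6 at 6.3 to 8.48, the T11 level, so these 6 go against their label. They are untreated replicate 3 at 3 days, treated replicates 1 and 5 and untreated replicates 3 and 4 at 7 days, and untreated replicate 2 at end stage. The comparisons of KPB25L-UV, the 7-day therapy average and the comparison of the classes are given with and without them. Other results include them unless stated, among them the correlations, the marker sums and the comparisons of end stage with 7 days.

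Members share transcript sequence to different degrees, which bears on how reads were split between them. Of the 50-base windows of Gbp10 transcripts 73.27% also occur in Gbp6, and of those of Gbp6 45.95% occur in Gbp10, while Gbp5 shared none with another member. The signal of Gbp5 came to a whole number of reads in 98.5% of libraries (within 0.01 reads), that of Gbp2 in 59.1%, and that of Gbp6 and Gbp10 in 3.07% and 1.57%. For Gbp4, Gbp8, Gbp9 and Gbp11 the share was 6.82 to 9.85%, and for Gbp3 and Gbp7 15.9 and 12.9%. The annotated gene Gm43302 also holds 64.98% of the windows of Gbp6 and 72.12% of those of Gbp10. Values of the chromosome 5 members are uncertain as separate genes, with the most shared sequence in Gbp6 and Gbp10. In whole tumours fewer cells that express a gene and less of its RNA per cell cannot be told apart, and that holds for all levels below.

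Over the 47 groups of model, time and arm, the levels of the 10 members varied together. Pearson's r between the group means of any 2 members ran from 0.775 to 0.971, with a median of 0.891. Each member's group means also followed the mean of the other members, most closely for Gbp5 (r = 0.978), Gbp3 (0.976) and Gbp2 (0.967), and least for Gbp9 (0.893) and Gbp10 (0.891). The points share tissue, parent lines and sequencing runs, so these are descriptions. Group means of Gbp2 spanned 7.33 to 15.81 and those of Gbp6 3.20 to 14.67, and for 8 of 10 members the highest group was treated T11-Apobec at 3 days.

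Among 16011 genes outside the family, those with a group pattern most like the family mean included AW112010 (r = 0.972), Slamf7 (0.962), Irgm2 (0.96) and H2-DMb2 (0.957). Irgm2 is an immunity-related GTPase, Slamf7 is a receptor of lymphocytes and myeloid cells, and H2-DMb2 loads peptide onto MHC class II. Within groups, over 192 libraries, the members' correlations with interferon genes differed in size. Deviations of Gbp4 correlated with those of Ifng at 0.829 and with the mean of the type I interferon-stimulated genes at 0.556, and for Gbp8 these values were 0.782 and 0.485. The order was the opposite for Gbp3 (0.717 and 0.8), Gbp9 (0.493 and 0.645) and Gbp10 (0.499 and 0.6).

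In untreated tumours at 3 days, models classed sensitive had higher mean levels of every member than models classed resistant, but no member passed the test across all genes. The comparison used 1 mean per model over its untreated 3-day tumours, 5 sensitive against 7 resistant models. Gbp2 means were 11.74, 13.98, 11.4, 13.09 and 12.59 in T11-UV, T11-Apobec, KPB25L, KPB25L-UV and KPB25L-Apobec. In the 7 resistant models Gbp2 ranged from 7.67 in p53-2225L, through 9.27 in p53-9263-3, the median, to 11.28 in T11. No resistant model reached the lowest sensitive one, although T11 lay only just below KPB25L.

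**Figure D1:**
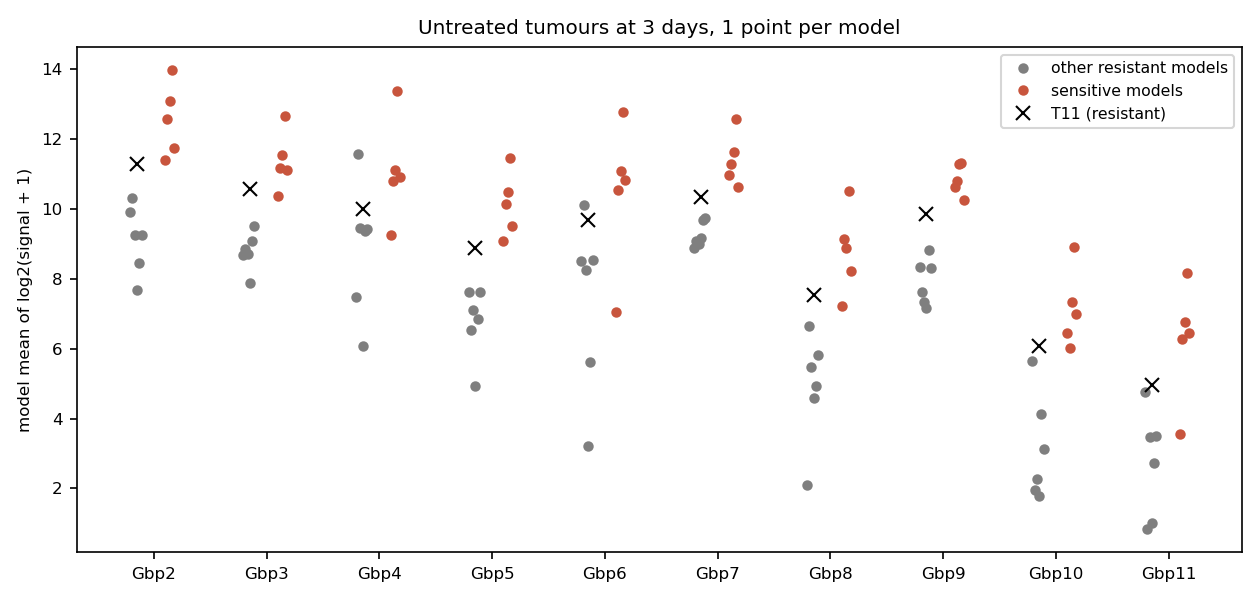
Mean level of each member, log2(signal + 1), in untreated 3-day tumours of each of 12 models, with sensitive and resistant models in separate colours and T11 drawn as a cross. Every sensitive mean of Gbp2, Gbp5, Gbp7 and Gbp9 lies above every resistant mean, and T11 is the resistant model nearest to them.

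The difference of Gbp2 was 3.11 ± 0.588 (SE, adjusted p = 0.0531 by limma), that of Gbp9 2.65 ± 0.447 (adjusted p = 0.0531) and that of Gbp7 2.01 ± 0.362 (adjusted p = 0.0531). Gbp4 and Gbp6, at 2.04 and 2.76, had the largest adjusted p-values, 0.193 and 0.203. None of 10 members was called, and 0% of 17920 genes were called at this threshold. At an unadjusted p under 0.05 there were 10 of 10 members, against 20.6% of all genes, and the median member difference was 2.91 against 0.0429 for all genes. For 4 members (Gbp2, Gbp5, Gbp7 and Gbp9) every sensitive model lay above every resistant model, which held for 0.977% of all genes tested.

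The other resistant models differed among themselves. Gbp8 was at 2.10 in KPB-1A, and Gbp11 was at 0.83 in p53-2153F and 1.02 in p53-2225L. Yet p53-2153F had a Gbp4 mean of 11.58, above 4 of the 5 sensitive models, with Gbp5 at only 6.54, so the members did not fall together there. The call depended on T11: without that model 8 of 10 members were called, with Gbp9 at 2.92 (adjusted p = 0.000512) and Gbp2 at 3.42 (adjusted p = 0.00169), and without T11-UV 3 were called. With 1 mean per parent among the sensitive models, and without the KPB25L-UV library against its label, 0 were called. T cell marker Cd3g (3.69 ± 0.867, adjusted p = 0.0568) and the NK marker Klrb1c (2.93 ± 0.763, adjusted p = 0.0615) differed in the same direction as the members. The median over 8 T cell markers was 3.03, and their part in the members' difference was not tested.

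Untreated T11-Apobec tumours exceeded their T11 parent in the whole family. At 7 days all 10 members were called higher, where 1.46% of all genes were, with a median difference of 3.41 against -0.032 for all genes. Gbp4, reported as a brake on IRF7, was at 13.97, 13.27, 13.03 and 13.07 in the T11-Apobec tumours and at 8.76, 8.25, 8.75 and 8.41 in T11. The groups did not overlap, and the difference was 4.79 ± 0.853 (adjusted p = 2.32e-05). Gbp10 differed by 5.27 ± 1.24 (adjusted p = 0.0024), Gbp2 by 3.42 ± 0.635 (adjusted p = 5.73e-05) and Gbp9 by the least, 2.54 ± 0.562 (adjusted p = 0.00104).

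At 3 days 6 of 10 members were called in the same comparison (3.97% of all genes were called higher), namely Gbp2, Gbp3, Gbp4, Gbp5, Gbp7 and Gbp8. Their differences ran from 2.08 for Gbp3 to 3.4 for Gbp4. The 2 groups lay on different flow cells at 3 days, and with flow cell as an added term 0 members were called, so flow cell and model cannot be told apart there. At 7 days the 2 groups shared a flow cell.

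T11-UV stood closer to T11. At 3 days no member was called (the adjusted p-values were all 1, with 0 members at an unadjusted p under 0.05), and 0.048% of all genes were called higher. At 7 days Gbp4 (2.85), Gbp6 (2.96) and Gbp11 (3.47) were called, against 9.38% of all genes. In Gbp4 the T11-UV tumours were at 13.73, 10.89, 10.85 and 10.1. Without the first of these, untreated replicate 1, 0 members were called. T11-UV and T11 untreated tumours lay on different flow cells, so flow cell and model cannot be told apart.

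Among the KPB25L derivatives at 3 days, Gbp6 (4.04) and Gbp11 (3.22) were called higher in KPB25L-UV, against 8.43% of all genes. In KPB25L-Apobec Gbp6 alone was called (3.48, adjusted p = 0.0304), against 2.75% of all genes. Without the library against its label Gbp6 alone was called in KPB25L-UV (3.22, adjusted p = 0.0495). With run year as an added term 0 members were called in either derivative, and the dependence of Gbp6 on run year is described further on.

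After 7 days of therapy the family was higher in treated than in untreated tumours of the sensitive models, averaged over T11-UV, T11-Apobec, KPB25L and KPB25L-UV. Of 10 members 8 were called higher (all but Gbp9 and Gbp10), where 15.5% of all genes were called higher and 21.2% lower. All 10 differences were above 0, with a median of 1.61 against -0.0671 for all genes tested.

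Gbp4 rose by 1.91 ± 0.427 or 3.77-fold (adjusted p = 0.000195), Gbp6 by 1.89 ± 0.562 (adjusted p = 0.00505) and Gbp11 by 1.88 ± 0.529 (adjusted p = 0.00308), values that lie well within 1 SE of one another. In the chromosome 3 cluster Gbp5 rose by 1.71 ± 0.358 (adjusted p = 8.08e-05), Gbp2 by 1.57 ± 0.318 (adjusted p = 4.33e-05), Gbp3 by 1.15 ± 0.308 and Gbp7 by 1 ± 0.248. Gbp9 (0.335 ± 0.281, adjusted p = 0.359) and Gbp10 (1.02 ± 0.618, adjusted p = 0.188) did not pass. All 8 calls held when any 1 of the 33 libraries was left out and when the 6 libraries against their label were left out.

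**Figure D2:**
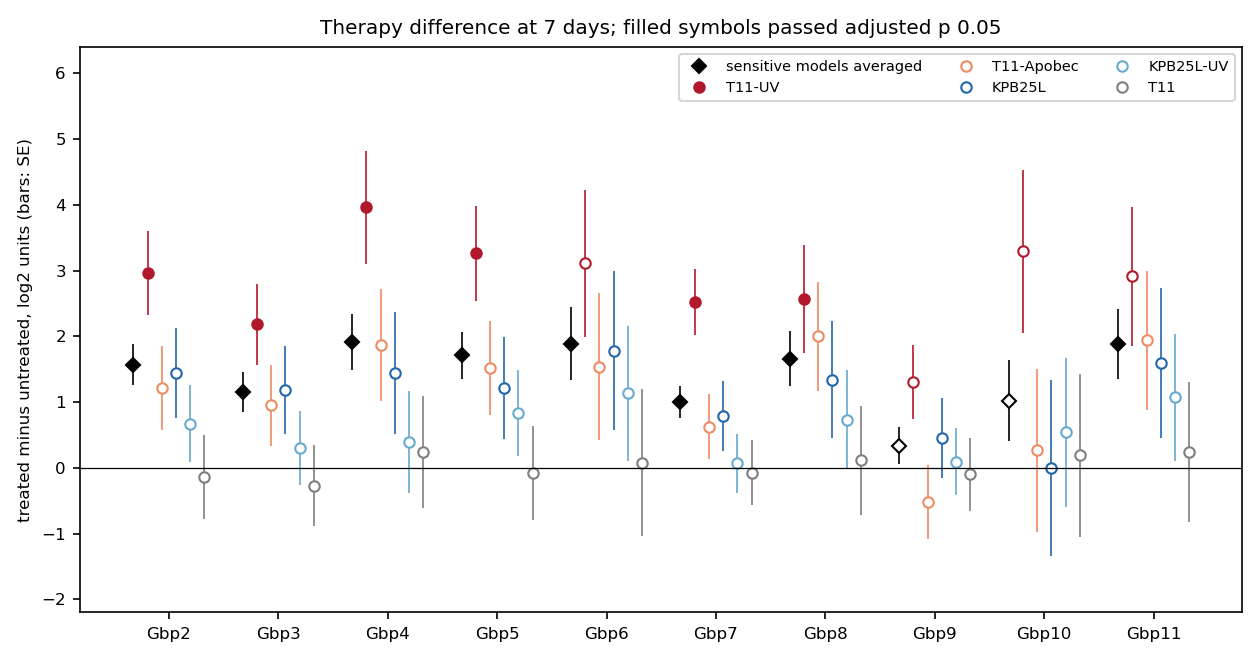
Difference in log2(signal + 1) between treated and untreated tumours at 7 days, with its standard error, for each member in the average over sensitive models and in each of the 5 models. Filled points are called members: 8 in the average, 6 in T11-UV and 0 in the other models.

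T11-UV carried the largest differences. Gbp2 was at 14.73, 14.59, 14.32 and 15.06 in treated T11-UV tumours and at 13.1, 11.21, 11.69 and 10.86 in untreated ones. The groups did not overlap, and the difference was 2.96 ± 0.635 (adjusted p = 0.000716). Gbp4 was at 15.48, 15.06, 15.23 and 15.65 against 13.73, 10.89, 10.85 and 10.1, a difference of 3.96 ± 0.853 (adjusted p = 0.000747).

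Untreated T11-UV replicate 1 was the highest of its arm in Gbp2, Gbp4 and Gbp5, and the lowest in Gbp10. In 8 of 10 members every treated tumour lay above every untreated one, and only Gbp9 and Gbp10 overlapped between arms. Every treated library lay above every untreated one in 6.08% of all genes. Gbp10 was at 8.58, 11.16, 5.99 and 12.53 in treated and 4.71, 7.01, 6.86 and 6.5 in untreated tumours, so its treated values spread more than those of any other member here. Gbp5, at 12.43, 12.69, 11.95 and 13.47 against 10.48, 9.43, 8.7 and 8.9, differed by 3.26 ± 0.717 (adjusted p = 0.000947).

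In all, 6 of 10 members were called in T11-UV (Gbp2, Gbp3, Gbp4, Gbp5, Gbp7 and Gbp8), where 4.31% of all genes were called higher. The treated and untreated arms of T11-UV lay on different flow cells, and therapy and flow cell cannot be told apart in this model. With flow cell as an added term none was called, Gbp2 was at 3.83 (adjusted p = 0.189), and Gbp10 turned to -0.633 (adjusted p = 0.931). The arms of each other model shared a flow cell at 7 days. Without T11-UV the average over the remaining sensitive models called 5 of 10 members, as Gbp3 (0.809, adjusted p = 0.0633), Gbp6 (1.48, adjusted p = 0.0625) and Gbp7 (0.494, adjusted p = 0.17) were lost. When the KPB25L-UV libraries against their label were left out as well, 8 were called.

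In T11-Apobec, whose untreated level was already high, Gbp4 was at 15.2, 15, 15.61 and 15.01 in treated and 13.97, 13.27, 13.03 and 13.07 in untreated tumours. These groups did not overlap, but the difference of 1.87 ± 0.853 missed the threshold (adjusted p = 0.0848). Gbp8 came nearest, with 2 ± 0.826 (adjusted p = 0.0544). No member was called, at an adjusted p of 0.0544 to 0.899, while 13.7% of all genes were called higher and 3 members had an unadjusted p under 0.05. For 7 members (all but Gbp7, Gbp9 and Gbp10) every treated tumour lay above every untreated one, which held for 22.2% of all genes. Fitted on these 2 groups alone 8 members were called.

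Gbp9 and Gbp10 went apart from the rest in T11-Apobec. Gbp9 was at 10.35, 12.34, 12.37 and 11.11 in treated and 12.53, 12.18, 12 and 11.53 in untreated tumours, a difference of -0.516 ± 0.562 (adjusted p = 0.522). Gbp10 was at 7.78, 11.41, 12.35 and 9.87 against 10.77, 10.07, 9.74 and 9.76. The treated tumour lowest in both, replicate 1, was at 15.2 in Gbp4, the second highest of the 4.

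**Figure D3:**
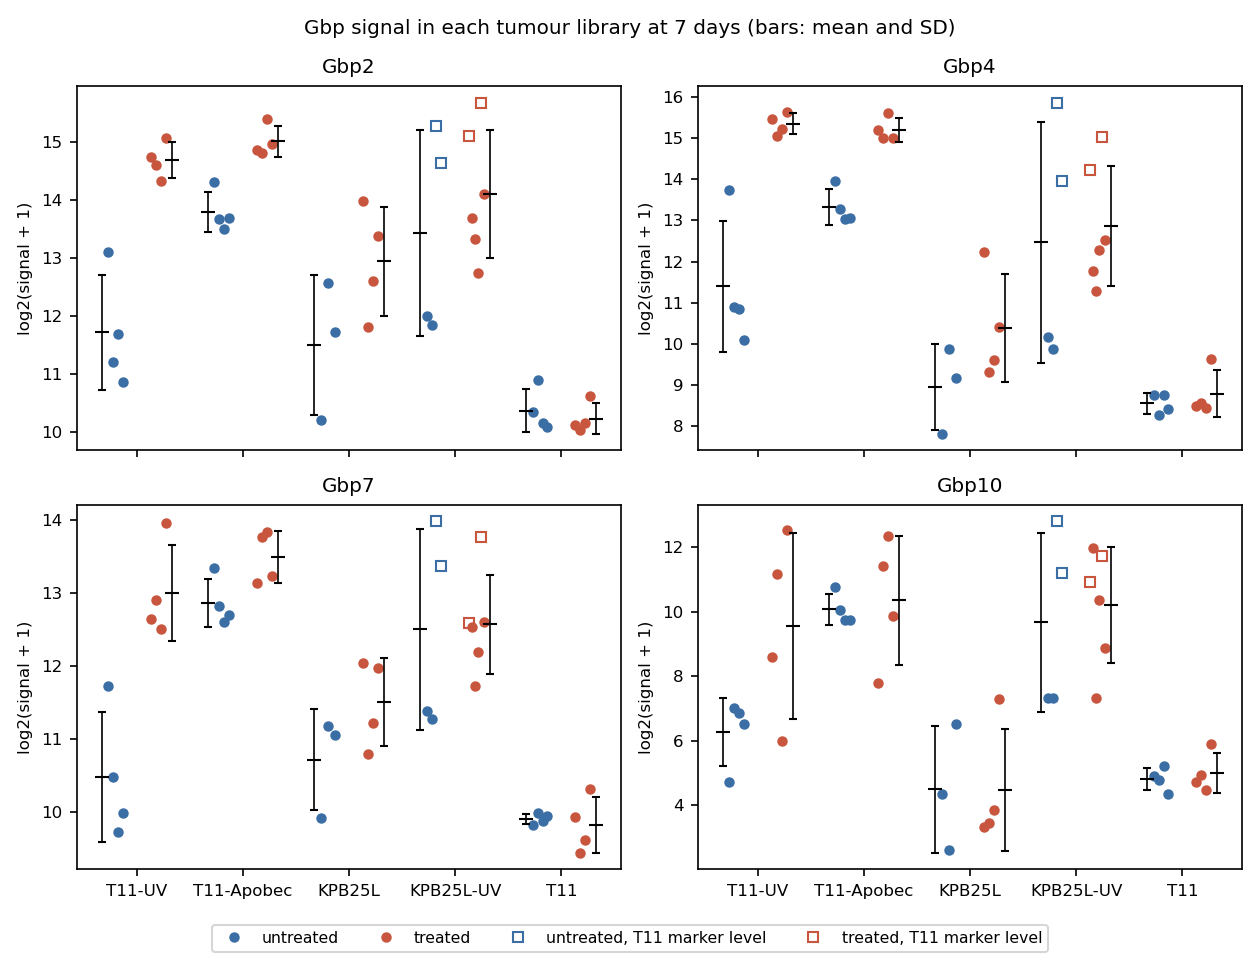
Level of Gbp2, Gbp4, Gbp7 and Gbp10, log2(signal + 1), in each 7-day tumour of 5 models by arm, with bars for the mean and SD and open squares for the KPB25L-UV libraries at the T11 marker level. Treated T11-UV and T11-Apobec tumours lie above untreated ones in Gbp2 and Gbp4, while the 2 arms of T11 coincide in all 4 genes.

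KPB25L tumours showed no call for any member at 7 days, with differences from -0.00505 (Gbp10) to 1.78 (Gbp6), a median of 1.27 and adjusted p-values of 0.847 to 1. In this model 0% of all genes were called higher, and 1 member had an unadjusted p under 0.05. Gbp2 was at 13.97, 11.81, 12.6 and 13.38 in treated and 10.2, 12.57 and 11.72 in untreated tumours. The arms overlapped in every member.

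In KPB25L-UV no member was called either, with a median difference of 0.605, adjusted p-values of 0.376 to 0.934, 0 members at an unadjusted p under 0.05 and 8% of all genes called higher. Gbp4 was at 11.29 to 15.02 in 6 treated tumours and at 10.17, 9.88, 15.87 and 13.95 in untreated ones. The untreated values of 15.87 and 13.95 belong to libraries at the T11 marker level. Without the 4 such libraries the differences were 0.927 (Gbp9) to 2.91 (Gbp6), with Gbp4 at 1.94 ± 0.952 (adjusted p = 0.142) and Gbp8 lowest in adjusted p at 0.0845, so no member was called without them.

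In T11 no member was called between arms at 7 days. Gbp2 was at 10.12, 10.03, 10.16 and 10.62 in treated and 10.35, 10.89, 10.16 and 10.08 in untreated tumours. The arms overlapped, the difference was -0.138 ± 0.635, and over the 10 members it ran from -0.273 to 0.238 with every adjusted p at 1. No gene of 20848 was called in T11 (0%), and 0 members had an unadjusted p under 0.05.

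The difference between the classes was tested directly. The therapy difference averaged over the sensitive models exceeded that in T11, the only resistant model at 7 days, by 0.436 to 1.82 with a median of 1.59. No member was called (adjusted p of 0.433 to 0.879, with 3 at an unadjusted p under 0.05), and 0.0048% of all genes were. For T11-UV minus T11 the median was 2.85 and the lowest adjusted p 0.0512, with 0 of 10 members called against 0.427% of all genes and 6 at an unadjusted p under 0.05. For T11-Apobec minus T11 the median was 1.41 and the lowest adjusted p 0.333, with 0 members called against 2.85% and 0 at an unadjusted p under 0.05. These comparisons share the T11 tumours.

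Other genes of the interferon pathways moved at 7 days in the sensitive models. Of 9 genes of the interferon gamma axis 6 were called higher, with a median of 1.13, including Ifng itself (3.15 ± 0.551, adjusted p = 2.69e-06) and Socs1, the feedback inhibitor of JAK signalling (1.69 ± 0.286, adjusted p = 1.23e-06). All 7 immunity-related GTPases tested were called higher with a median of 1.3, led by Igtp (1.8 ± 0.367, adjusted p = 4.81e-05), which acts with the family on parasite vacuoles. Of 8 inflammasome and pyroptosis genes 5 were called higher, among them Pycard, the inflammasome adaptor (1.11 ± 0.216), and Casp1, its protease (1.03 ± 0.241).

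Genes of type I interferon were given as 2 lists. Of 11 type I interferon-stimulated genes 1, Oas1a, was called higher (0.715 ± 0.273, adjusted p = 0.03), with a list median of 0.531, and Isg15 was at 0.637 (adjusted p = 0.0699). Of 7 genes of the receptor and its signalling 5 were called higher with a median of 0.456, such as Stat2 (0.542) and Ifnar2 (0.368). The difference between these lists and the family was not tested.

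In the average over the sensitive models, markers of immune cells were higher along with the family. All 8 T cell markers (median 2.65), all 5 NK markers (1.18), all 5 dendritic cell markers (1.41) and 3 of 3 leukocyte markers (0.747) were called higher, and 2 of 5 macrophage markers (0.393). None of 4 endothelial markers and 1 of 6 epithelial markers were called higher, and 2 of 5 mesenchymal markers were called lower. The summed signal of the T cell markers was 1780 to 32100 in 18 treated sensitive tumours, with a median of 8750, and 526 to 6110 in 15 untreated ones, with a median of 1780, and no T cell marker was at 0 in any of these libraries. In T11 it was 241 to 555 in treated and 252 to 399 in untreated tumours. The macrophage sum was 14000 to 71200 in treated and 14400 to 43800 in untreated sensitive tumours. By model, 8 of 8 T cell markers and 6 of 10 members were called higher in T11-UV, and 7 and 0 in T11-Apobec. In KPB25L-UV all 8 T cell markers (median 2.38) and 0 members (median 0.605) were called, and in KPB25L 0 of either. The KPB25L-UV values include the libraries against their label. Without those libraries the members' differences were 0.927 to 2.91, again with 0 called, and the T cell markers are not given. The part of any of these cell types in the members' difference was not tested.

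At 3 days of therapy 6 of 10 members were called higher in the average of the sensitive models (Gbp2, Gbp4, Gbp5, Gbp7, Gbp8 and Gbp11), where 6.93% of all genes were called higher. The median was 1.09 against -0.0684 for all genes. Gbp11 differed by 1.76 ± 0.538 (adjusted p = 0.0228), Gbp4 by 1.6 ± 0.434 (adjusted p = 0.0129) and Gbp2 by 1.18 ± 0.323 (adjusted p = 0.0137). No T cell marker of 8 was called at 3 days, with a median of 0.165, and no NK marker of 5, with a median of 0.832. Called higher were 1 of 5 dendritic cell markers (Batf3, 1.45) and 1 of 3 leukocyte markers (Laptm5, 0.467). Of 5 macrophage markers 1 was called lower (Mertk, -0.601). The part of these cell types in the members' 3-day difference was not tested. Of 9 interferon gamma genes 6 were called higher (Irf1 at 1.13, adjusted p = 0.000466) and 1 lower, the receptor chain Ifngr1 (-0.392, adjusted p = 0.0293), named after its value was seen.

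The 3-day count depended on few libraries and on the batch term. With flow cell as an added term 0 members were called, with run year as an added term 7 were, and in a fit of only the groups compared 1 was. It fell to 0 without treated T11-UV replicate 1 or replicate 3, to 1 without treated KPB25L-UV replicate 1, to 2 without treated KPB25L replicate 4 and to 3 without any of 5 other libraries (treated KPB25L replicate 2, treated T11-Apobec replicate 2, untreated T11-Apobec replicate 4 and untreated KPB25L-UV replicates 1 and 4).

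KPB25L tumours split at 3 days. Gbp4 was at 8.98, 13.48, 8.78, 13.46 and 13.24 in treated and at 8.28, 9.11, 8.78, 9.14 and 10.99 in untreated tumours. Of the 5 treated tumours 3 lay above every untreated one and 2 lay among them, and the same 3 tumours were above all untreated ones in Gbp2, at 14.97, 14.55 and 14.56 against 12.72 at most. Called higher were 5 members (Gbp2, Gbp4, Gbp5, Gbp8 and Gbp11), against 8.7% of all genes, with Gbp11 at 3.99 ± 0.946 (adjusted p = 0.00277). Between 0 and 8 members were called when 1 tumour was left out, 0 of them without treated replicate 4 or 5, 1 without treated replicate 2 or untreated replicate 3, 2 and 3 without untreated replicates 1 and 4, and 8 without treated replicate 1 or 3. All 5 treated and 3 of the untreated tumours came from runs before 2018, and among these the differences were 0.953 to 3.58. Treated replicates 4 and 5 lay on a flow cell with no untreated KPB25L tumour of 3 days. With flow cell as an added term 0 members were called, with Gbp2 at 0.244, Gbp4 at 0.401 and Gbp11 at 1.14 and every adjusted p at 1, and in a fit of only these groups 0 were called. With run year as an added term 7 were called.

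In T11-UV at 3 days Gbp4 alone was called (2.69 ± 0.922, adjusted p = 0.0371), against 6.65% of all genes called higher. It was at 14.48, 11.41 and 14.95 in treated and at 11.24, 10.52, 11.53 and 10.41 in untreated tumours, so treated replicate 2 lay within the untreated range. The call was lost without treated replicate 1 or 3 or any 1 of the untreated tumours, and 3 members were called without treated replicate 2. In T11-Apobec the median difference was 1.7 with 0 called (lowest adjusted p 0.225, with 6 at an unadjusted p under 0.05 and 0.0767% of all genes called higher). In KPB25L-UV all 10 differences were below 0, at -0.991 to -0.196, and none was called (0% of all genes, with 0 members at an unadjusted p under 0.05). Without the untreated library against its label they ran from -0.186 to 0.91, again with 0 called.

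Values in treated T11 tumours were higher at 3 days than at 7 days, without a call. Gbp2 was at 12.36, 12.3, 14.28 and 11.56 in treated and at 11.97, 10.36, 11.05 and 11.75 in untreated T11 tumours at 3 days. The lowest treated tumour lay within the untreated range. The median member difference was 1.62, 6 members had an unadjusted p under 0.05, and every adjusted p was 1. In treated T11 tumours all 10 members were lower at 7 than at 3 days with a median difference of -2.52, 10 at an unadjusted p under 0.05 and 0 called (adjusted p of 0.109 to 0.913, 0.00959% of all genes called lower). The T11 arms at 3 days lay on different flow cells, so arm and flow cell cannot be told apart. Treated T11 tumours of 3 and of 7 days also lay on different flow cells, so time and flow cell cannot be told apart either. Averaged over the 3 resistant models treated at 3 days, no member was called (median 1.03, every adjusted p 1, 5 at an unadjusted p under 0.05, 0% of all genes), while 2 were called with flow cell as an added term. No member was called for the difference between classes (adjusted p of 0.773 to 0.966, 0 at an unadjusted p under 0.05, 0% of all genes).

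**Figure D4:**
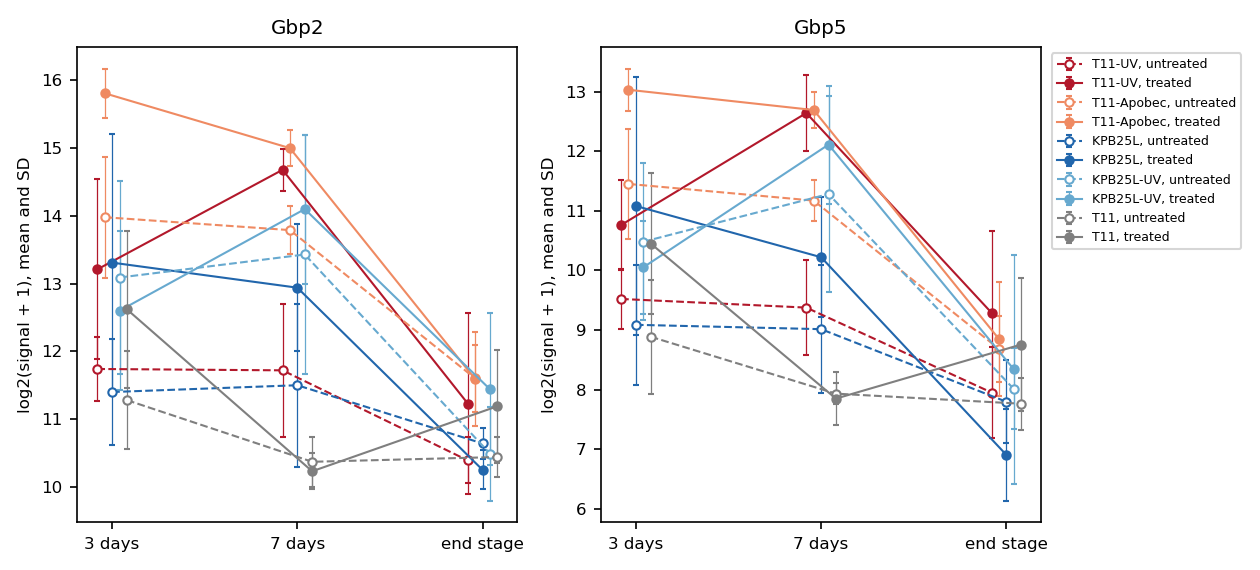
Group means of Gbp2 and Gbp5, log2(signal + 1), with SD, at 3 days, 7 days and end stage in treated and untreated tumours of 5 models. End-stage means of Gbp2 lie at 10.25 to 11.59 in the treated arms, below the treated 7-day means of all models but T11.

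At end stage the family was lower than at 7 days in both arms of the sensitive models. Between 7 days and end stage all 10 members were called lower in treated tumours (23.9% of all genes were), with a median of -3.31. Gbp6 fell by 4.63 on the log2 scale (adjusted p = 2.55e-12), Gbp4 by 3.73 (adjusted p = 1.95e-13), Gbp5 by 3.57 (adjusted p = 2.97e-16) and Gbp9 by the least, 1.1 (adjusted p = 0.00046). Untreated tumours also changed, with all 10 called lower against 5.4% of all genes, and a median of -2.12. Gbp2 fell by 1.83 there and Gbp6 by 3.58. The markers of T cells fell with them in treated tumours, 8 of 8 with a median of -3.61, and their part was not tested. A flow-cell term could not be estimated for these comparisons, so flow cell and time cannot be told apart. Run year also went with time, which bears on Gbp6, the member called for run year further on. All treated KPB25L tumours of end stage came from earlier runs than the tumours of 7 days. So did some untreated KPB25L, untreated KPB25L-UV and treated T11-UV tumours of end stage. How much of the Gbp6 falls goes with run year is not separated here. The labels give the 4 treated KPB25L-UV tumours at end stage the same mouse numbers as the 4 treated T11-UV tumours at 7 days, and do not say whether these are the same mice.

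At end stage no member was called between arms. Gbp2 in treated and untreated groups had means of 11.23 ± 1.34 (SD, n = 5) and 10.39 ± 0.339 (n = 4) in T11-UV, and 11.59 ± 0.699 (n = 4) and 11.6 ± 0.496 (n = 4) in T11-Apobec. In T11 they were 11.19 ± 0.835 (n = 5) and 10.44 ± 0.301 (n = 5), and in KPB25L 10.25 ± 0.288 (n = 3) and 10.64 ± 0.224 (n = 6). The average over sensitive models gave a median difference of 0.292 with 0 called (adjusted p of 0.887 to 0.994, 0 at an unadjusted p under 0.05, 0% of all genes called higher), and that over resistant models 0.548 with 0 called (adjusted p of 0.852 to 0.981, 0 at an unadjusted p under 0.05, 0% of all genes). T11-UV had the largest end-stage median, 1.41, with 5 members at an unadjusted p under 0.05, a lowest adjusted p of 0.21 and 0.0719% of all genes called higher. In KPB25L-UV the end-stage differences ran from -0.417 (Gbp8) to 1.99 (Gbp6), with 0 called against 3.34% of all genes, 0 at an unadjusted p under 0.05 and 0 called without the library against its label. With run year as a term Gbp6 was at 0.782 (adjusted p = 0.693). In T11-UV treated Gbp4 ran from 8.16 to 12.86 around a median of 11.89, and untreated Gbp4 from 7.71 to 9.47.

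Gbp6 moved with the year of sequencing as well as with the tumours. In a fit with run year as a term, libraries run in 2018 exceeded those run earlier or with no run date in Gbp6 by 3.63 ± 0.676 (adjusted p = 0.000263), rank 23 among 20848 genes, of which 0.94% were called. No other member was called for run year (adjusted p of 0.633 to 0.985). The difference Gbp6 minus Gbp4 within a library had a median of -0.483 (-2.39 to 2.45) in 128 libraries of 2018 and of -2.91 (-9.04 to 1.33) in 64 earlier ones. In KPB25L alone, 11 libraries of 2018 lay at -0.927 to 0.847 and 15 earlier ones at -5.28 to -2.39, with no overlap. The year term rests on the groups run in both periods: untreated KPB25L at 3 days and end stage, and untreated KPB25L-UV and treated T11-UV at end stage. Across libraries year also goes with model, time and arm. All 7-day KPB25L tumours were of 2018, all its treated tumours of 3 days and end stage were earlier, and all p53-2336R tumours were earlier. The 7-day tumours of the other sensitive models were also of 2018, so run year goes in part with the comparisons of end stage with 7-day tumours. Gbp6 shares much sequence with Gbp10, and neither run date nor sharing was separated further.

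**Figure D5:**
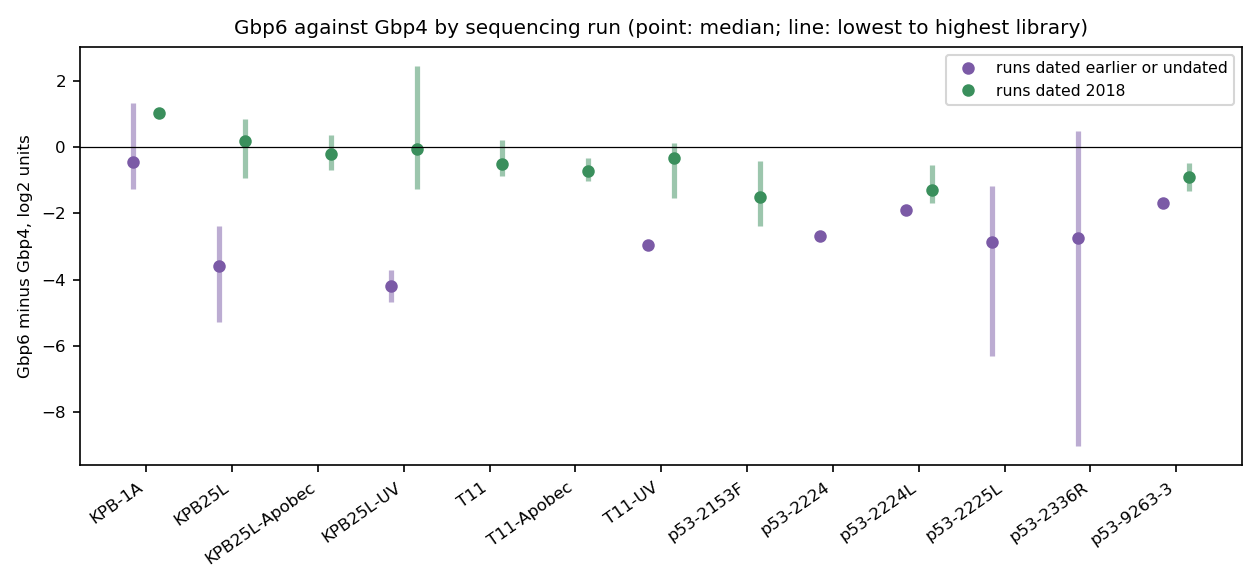
Difference between the levels of Gbp6 and Gbp4 in the same library, log2, as median and range for each model and run year. In KPB25L the libraries of 2018 and the earlier ones do not overlap.

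This bears on the comparison of the parents. Untreated T11 exceeded KPB25L at 3 days in Gbp6 alone (2.64 ± 1.07, adjusted p = 0.0458), against 12.2% of all genes called higher. All 4 T11 tumours were run in 2018. Against the 2 KPB25L tumours of 2018 the Gbp6 difference was 0.887, and against the 3 earlier ones it was 3.8. With run year as a term no member was called, and with flow cell as a term Gbp6 turned to -3.49 (adjusted p = 0.528). The other members differed between the parents by -0.778 (Gbp9) to 1.4 (Gbp11). The Gbp6 calls in KPB25L-UV and KPB25L-Apobec against KPB25L set tumours run in 2018 against the same mixed KPB25L group.

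Against normal FVB mammary glands 9 of 10 members were called lower in KPB-Primary, 6 in PyMT and 3 in C3-TAG tumours. Of all genes 23.4%, 22.8% and 25.7% were called lower. The count in C3-TAG lies near that share, and 1 member was called higher there. Glands were taken from 5 BALB/c and 4 FVB samples, some labelled as pooled tissue. No member was called between the strains (adjusted p of 0.493 to 0.988, 0 at an unadjusted p under 0.05), where 1.02% of all genes were called higher and 1.03% lower. Gbp4 was at 13.78, 12.55, 11.51, 12.28 and 12.13 in BALB/c and at 10.64, 12.23, 10.54 and 11.63 in FVB glands, which overlapped.

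KPB-Primary tumours, from mice with K14-Cre and floxed Brca1 and p53, were called lower than FVB glands in 9 of 10 members, against 23.4% of all genes, with Gbp3 not called (-0.809, adjusted p = 0.244). The median was -2.39. Gbp11 was at 12.32, 11.25, 10.69 and 11.86 in the glands and at 0.77 to 6.81 with a median of 4.07 in 24 tumours. It differed by -7.53 ± 0.732 (adjusted p = 2.98e-13) with no overlap. Gbp4 differed by -3.2 ± 0.592 and ranged from 5.11 to 10.6 in the tumours.

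PyMT and C3-TAG are mouse models driven by viral oncogene transgenes. They were compared with the same 4 glands, and not with each other. In PyMT 6 members were called lower (22.8% of all genes) with Gbp11 at -7.58, Gbp8 at -4.48, Gbp4 at -4.35 and Gbp5 at -4.23, while Gbp6 (0.559), Gbp3 (0.124) and Gbp2 (-1.08) were not called. In C3-TAG 3 were called lower (25.7% of all genes), Gbp11 (-5.71), Gbp4 (-2.66) and Gbp5 (-1.63), and Gbp3 was called higher (1.44, adjusted p = 0.0474, against 32.6% of all genes). A flow-cell term could not be estimated for C3-TAG, so flow cell and tissue cannot be told apart. Gbp5 was at 5.93, 6.38, 6.95, 5.92 and 6.19 in the 5 PyMT tumours and at 10.19, 11.02, 9.93 and 10.9 in FVB glands, without overlap.

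Summed T cell markers were 2440 to 34600 in FVB and 17700 to 93000 in BALB/c glands, 376 to 7860 in KPB-Primary, 629 to 2470 in C3-TAG and 215 to 503 in PyMT, with 1 of 8 markers at 0 in at least 1 library of KPB-Primary and of C3-TAG. Epithelial markers summed to 23700 to 46400 in FVB glands and to 147000 to 270000 in PyMT. Of 11 type I interferon-stimulated genes 9 were called higher than in FVB glands in C3-TAG (median 2.49) and 8 in PyMT (median 2.59). In KPB-Primary 0 of them were called higher and 2 lower (median 0.305). The part of T cells, epithelial cells or interferon in the members' differences from the glands was not tested.

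The 6 cultured lines, 1 library each, were a separate table with its own scaling, so their levels are compared only with one another and without a test. In culture 9 of 10 members (all but Gbp10) were higher in each of 3 T11 lines than in each of 3 KPB25L lines, which held for 19.9% of 18958 genes. Gbp2 was at 6.31 in the line labelled T-11-CellLine-VALIDATION, 8.08 in T11_EF1A_APOBEC_CELL_LINE and 6.99 in T11_V5_CELL_LINE. It was at 5.46 in KPB-25L-CellLine-VALIDATION, 4.91 in KPB_25L_V1_5_CELL_LINE and 3.84 in KPB_EF1A_APOBEC_CELL_LINE.

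Gbp3 separated the lines most evenly, with 5.58, 7.86 and 7.44 in T11 lines and 3.2, 3.23 and 2.59 in KPB25L lines. Gbp5 was listed at 0 in 2 of the 3 KPB25L lines and at 0.73 in the other, against 1.47 to 4.47 in T11 lines. Ifng was at 0 in all 6 lines. In untreated tumours of the parents T11 and KPB25L at 3 days Gbp6 was the only member called. It was not called with run year or flow cell as an added term.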

How the data were processed

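Per the labels' protocols, RNA was extracted with Qiagen kits, made into Illumina TruSeq mRNA libraries and read from both ends on HiSeq instruments. The build mm10 and the tools Salmon, STAR, Picard and SAMtools are named in the submitters' processing notes, without versions. The authors deposited gene-level signal values, per the file headers normalized to an upper quartile that came to 2048.974 in every tumour library and 1000 in every cultured line. Reads per library were estimated from the steps between small signal values. Of the tumour values, 39 entries with date-like names and 28 entries of repeated symbols were left out, which held 0.21 to 0.457% of the signal, and the 2 libraries of 1 KPB25L mouse were averaged.

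The log2(signal + 1) values were tested with limma 3.58.1 in R 4.3.3 (trend, moderated variance), with Benjamini-Hochberg adjustment over all genes tested and a threshold of 0.05. Genes above 0 in at least 4 samples and in the top 66.7% by mean were tested. The tumour fit held 192 libraries in 47 groups (20848 genes, 145 residual degrees of freedom), the gland fit 63 libraries in 7 groups (20876 genes) and the class fit 12 model means (17920 genes). The fit was tested on simulated data with known changes. All 10 members were named, with at most 2 genes per list, those with the smallest adjusted p. Groups follow GEO's labels, although the table's header calls some untreated 3-day tumours pretreatment and C3-TAG resistant. The members and lists were chosen with earlier results of these data known. Irgb10 and Itgam were in no row under these symbols. Alternatives changed the pseudocount, filter, scaling, trend, samples in the fit and batch terms, and left out each replicate in turn. A gene that the naming rule picked is not reported here.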

Additional observations from a re-analysis of the deposited data

Results flagged for a closer look

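Of 90 sets of a member and a 7-day group of 4 to 10 tumours, 5 held a tumour far from the others of its group, and chance alone gives about 1 in 20. In treated T11 replicate 4, Gbp4 was at 9.63 where the nearest tumour was at 8.57, Gbp5 at 8.52 against 7.64 and Gbp6 at 9.12 against 8.03. This tumour was the highest of the treated T11 group in all 3 genes. In treated T11-Apobec replicate 3, Gbp6 was at 14.7 and the nearest tumour at 14.2. In treated KPB25L replicate 4, Gbp10 was at 7.3, far above the nearest at 3.86, while Gbp4 and Gbp8 of the same tumour lay within the range of the others or just below it, at 10.4 and 7.5.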

How the results depend on the processing

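The 8 members called at 7 days in the sensitive average stayed at 8 under every alternative and every left-out replicate, except that 5 were called without T11-UV. With T11-UV and the KPB25L-UV libraries against their label both left out, 8 were called. At 3 days the sensitive average had 6 called, which fell to 1 in a fit of only the groups compared and 0 with flow cell as a term. The count rose to 7 with run year as a term, with a range of 0 to 7 over left-out replicates. The resistant average at 3 days rose from 0 to 2 with flow cell as a term. T11-UV at 7 days fell from 6 to 0 with that term, Gbp10 turning to -0.633, rose to 9 with a pseudocount of 10 and 8 in a fit of its own groups, and ranged from 4 to 7 over left-out replicates. T11-Apobec at 7 days went from 0 to 1 with a pseudocount of 10, with median-of-ratios scaling, with flow cell as a term and without the libraries against their label, and to 8 in a fit of its own groups. Untreated T11 against KPB25L went from 1 to 0 with a pseudocount of 0.1, no filter on the mean, a flow-cell or run-year term, or Gbp6 and Gbp10 summed, and from 0 to 1 over left-out replicates. Untreated T11-Apobec against T11 at 3 days went from 6 to 10 in a fit of its own groups and to 0 with flow cell as a term, with 2 to 7 over left-out replicates. T11-UV against T11 at 7 days went from 3 to 8 in a fit of its own groups, with 0 to 3 over replicates. KPB25L at 3 days went from 5 to 0 in a fit of its own groups and with flow cell as a term. It rose to 7 with run year as a term, with 0 to 8 over replicates. T11-UV at 3 days went from 1 to 0 in a fit of its own groups and with no filter, with 0 to 3 over replicates. C3-TAG against FVB glands ranged from 2 to 5 over replicates and 3 to 6 over other settings, and PyMT from 5 to 6 and 5 to 8. The class comparison had 0 called, 8 without T11, 3 without T11-UV and 0 to 5 over left-out replicates, 5 without untreated T11 replicate 1 or 4. Where the fit held fewer groups, fewer libraries set the spread. For the other changes the cause was not tested.

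No paired analysis was possible because the labels give no replicate numbers that the arms share. A flow-cell term could not be estimated between times, for untreated T11-UV against T11 at 7 days or for C3-TAG against FVB glands. An alternative that pools members with near-identical proteins was not run, and Gbp6 and Gbp10 were summed in its place, chosen after seeing the data, as were the run-year term, the fits without T11-UV and those leaving out 1 model. Intervals for counts are not given, since the values are normalized signal, and the low members Gbp10 and Gbp11 near 0 are limited by depth.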

Other observations

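Untreated end-stage tumours of models with 1 library at that stage spread widely in the family. Gbp10 was at 10.42 in p53-T7 and at 0.0935 in p53-9263-3. Gbp2 was at 12.29 in p53-T7, 12.08 in p53-T12 and 11.92 in p53-2151, and at 7.68 in p53-T1 and 7.33 in p53-9263-3. In 10 tumours of the lobular model ILC-Pik3Ca/Cdh1Null, Gbp2 was at 12.56 ± 0.601 (SD), Gbp5 at 9.65 ± 0.716 and Gbp11 at 4.56 ± 1.99.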
